A study of Homo sapiens with 39 samples.

Results

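The 6 genes IGFBP2, IGFBP3, IGFBP4, IGFBP5, IGFBP6 and IGFBP7 encode secreted proteins that bind insulin-like growth factors (IGFs). They were taken by symbol from a table of 60671 distinct gene identifiers, and all 6 were found there. RNA was sequenced from 2 human melanoma cell lines, A375 and WM115. Each line was studied without a deletion (wild type, WT) and as clones missing an enhancer region of SOX10, either R1 or R4. SOX10 is a transcription factor that melanocytes and other neural crest derivatives depend on. A375 gave 4 libraries of WT, 3 of clone 1.1 and 4 of clone 1.2 (both R1 deleted), and 4 of clone 4.1 and 3 of clone 4.2 (both R4 deleted). WM115 gave 4 libraries of WT, 5 of clone 1.1 and 3 of clone 1.2 (both R1 deleted), 3 each of clones 4.1 and 4.2 (both R4 deleted), and 3 of clone 1.3. The title of clone 1.3 follows the R1 clones and its genotype label names R4, so it was kept as a group of its own. No treatment or time is named, and all 39 libraries were of polyadenylated RNA. Libraries of a clone repeat that clone, and nothing states that they came from separate cultures, so a p-value over libraries measures the spread between these libraries.

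IGFBPs hold IGF1 and IGF2 outside the cell and so limit or prolong their access to the receptor IGF1R. Proteases such as the one encoded by PAPPA cut them and release the growth factor, and stanniocalcins (STC1, STC2) inhibit that cut. IGFBP7 binds IGFs more weakly than the others and is studied in melanoma as a secreted growth inhibitor.

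Levels are in TPM, a length-corrected share of the transcripts of a library. Differences are differences of mean log2(TPM + 1) from a limma fit over all tested genes of a line. A call needed a Benjamini-Hochberg adjusted p below 0.05 together with a log2 difference of 1 or more in either direction; "rose" and "fell" are used only of called differences. TPM are shares of bulk RNA, so fewer cells of a kind and less RNA per cell cannot be told apart. Read depth is unknown, so no counting interval was computed.

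In GENCODE 29 (GRCh38), IGFBP2 (ENSG00000115457, chr2:216632828-216664436, plus strand) and IGFBP5 (ENSG00000115461, chr2:216672105-216695525, minus strand) are neighbours, 7.669 kb apart with 0 genes between them. IGFBP3 (ENSG00000146674) lies at chr7:45912245-45921874 on the minus strand, 18.577 kb from IGFBP1. IGFBP4 (ENSG00000141753) lies at chr17:40443461-40457731, plus strand. IGFBP6 (ENSG00000167779) lies at chr12:53097436-53102345, plus strand, and IGFBP7 (ENSG00000163453) at chr4:57030773-57110385, minus strand.

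The 250 bases upstream of the RefSeq start of IGFBP3 (GRCh38.p14, chr7:45921273-45921522, minus strand) and of IGFBP5 (chr2:216695550-216695799, minus strand) are shown because both genes were called in WM115 clone 4.2. The last 2 bases of the IGFBP3 window lie in an exon of a GENCODE 29 transcript, and 0 of the IGFBP5 window do. Capitals mark matches to the motifs named after the sequences, on either strand.
IGFBP3: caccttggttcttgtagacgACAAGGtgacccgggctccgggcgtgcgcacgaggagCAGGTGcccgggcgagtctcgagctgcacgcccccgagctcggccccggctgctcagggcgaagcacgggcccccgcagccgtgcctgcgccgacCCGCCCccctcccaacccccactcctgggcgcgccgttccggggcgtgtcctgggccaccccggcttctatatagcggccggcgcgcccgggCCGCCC
IGFBP5: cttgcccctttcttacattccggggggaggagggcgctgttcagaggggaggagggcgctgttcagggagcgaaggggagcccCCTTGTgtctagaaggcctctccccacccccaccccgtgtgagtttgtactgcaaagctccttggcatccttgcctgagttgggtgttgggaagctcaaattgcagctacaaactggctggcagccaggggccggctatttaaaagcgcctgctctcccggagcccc
The IGFBP3 window held 1 match to the SOX core letters ACAANG, 1 to the E-box CANNTG and 2 to the GC box GGGCGG, and was 76% G or C. The IGFBP5 window held 1 match to the SOX core, 0 to the E-box and 0 to the GC box, and was 61.2% G or C. Of 35116 RefSeq promoter windows of the same length, 30.9% held the SOX core, 61.8% the E-box and 42.6% the GC box. Neither window held the AP-1 letters TGANTCA (6.57% of all windows) or TATAAA (10.7%). No marked match overlapped another. A match is a description of letters and not a binding site.

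Some libraries stood apart. On all genes, 11 of 39 libraries correlated better with the mean of another group of their line than with the rest of their own. In A375 there were 9 of 18, among them all 3 of clone 1.1 and libraries 2, 3 and 4 of WT. In WM115 there were 2 of 21. Those 2 were library 2 of clone 1.3, closest to clone 1.2 (r = 0.659, against -0.03 with its own group), and library 3 of clone 1.3, closest to WT (r = 0.587). A375 WT, the reference of every A375 clone, was itself uneven. Its libraries 2 and 4 each had r = -0.31 with their own group, against 0.410 with clone 4.1 and 0.537 with clone 4.2. SOX10 was at 630 to 706 TPM in A375 WT and at 449 to 553 TPM in WM115 WT. Among the clones it was called in WM115 clone 1.2 alone (log2 difference -2.44, adjusted p = 0.0192), with 279, 272 and 9.56 TPM in libraries 1, 2 and 3. Library 3 weighs heavily in that value: the mean of the clone was 187 TPM and its median 272 TPM. No SOX10 value without library 3, or with the ribosomal protein share described below as a covariate, is given here. The mitochondrial share of TPM was 0.968% to 4.92% in A375 and 4.71% to 19.4% in WM115. It was 13.7% to 15.6% in WM115 WT and lower, 4.71% to 12.7%, in all libraries of WM115 clones 1.2, 4.1 and 4.2. For those clones against WT, the effects of this share and of being a clone cannot be told apart. Clones 1.1 (4.86% to 14.4%) and 1.3 (8.31% to 19.4%) overlapped WT. The division at 7.5% used below puts WT and clone 1.2 in the same set. The share of the 86 ribosomal protein genes was 12.0% to 13.6% in WM115 WT (4 libraries), and library 3 of clone 1.3 had 11.5%. In the other 16 WM115 clone libraries it was 16.2% to 18.6%. That share therefore nearly coincides with the division of WM115 into WT and clones, and each WM115 result against WT below is given with it as a covariate where it changed the call.

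**Figure D1:**
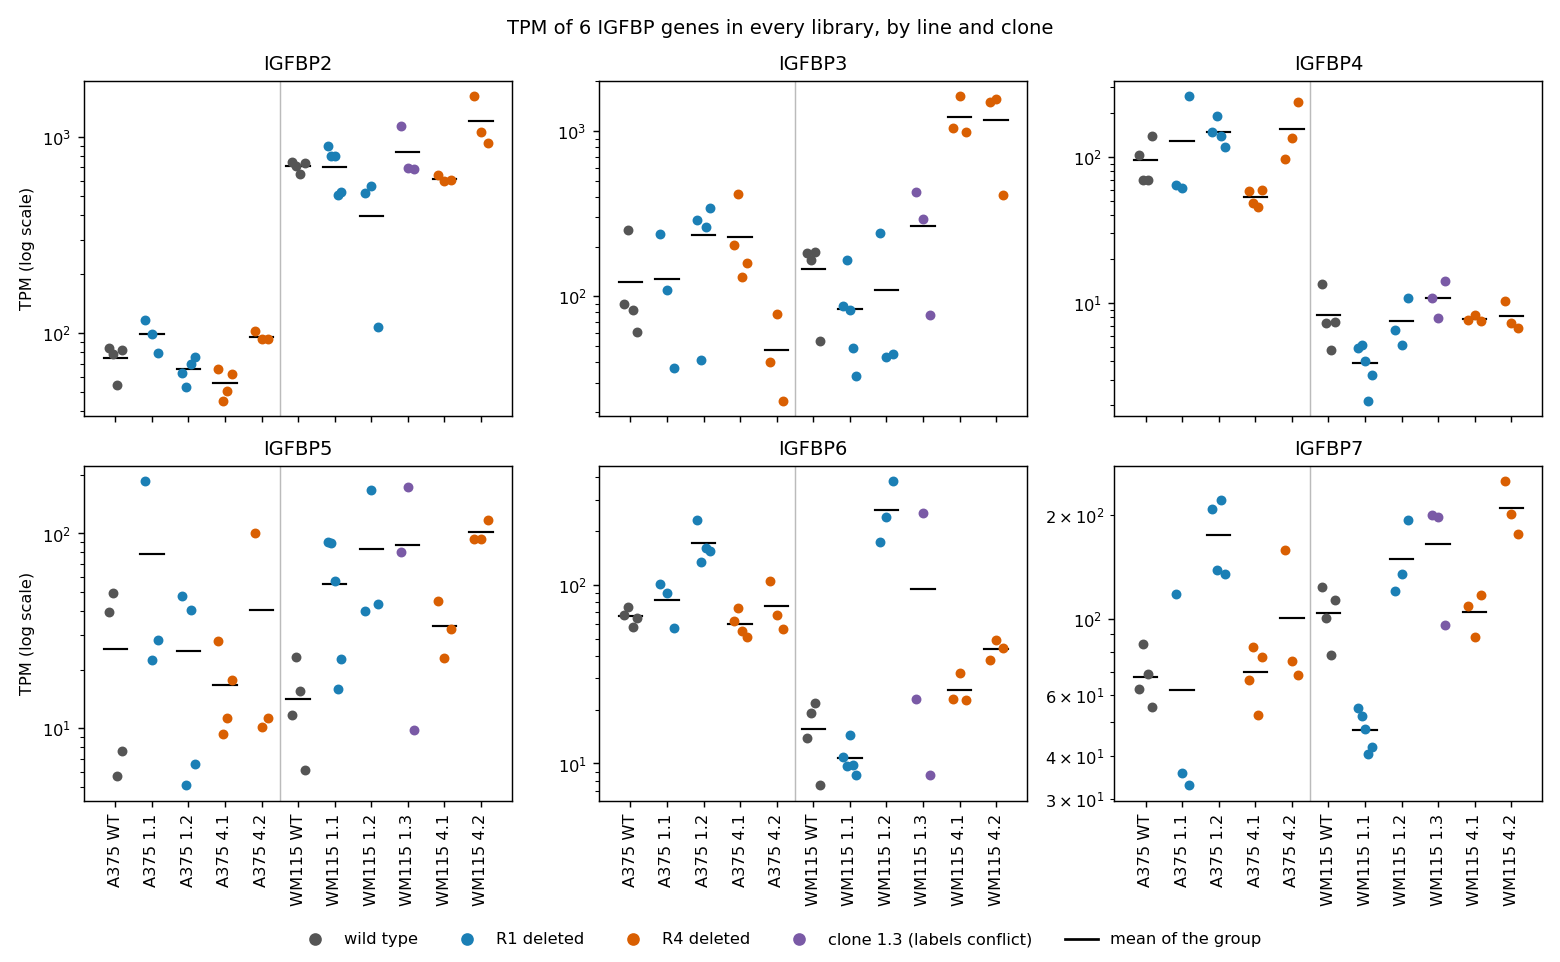
TPM on a log scale of each of the 6 genes in all 39 libraries; each point is a library, each line the mean of a group, and colours give the deleted region. IGFBP2 sits near 75 TPM in A375 WT and near 712 TPM in WM115 WT, IGFBP4 is below 15 TPM in all WM115 libraries, and IGFBP3 is at 412 TPM or more in all 6 libraries of WM115 clones 4.1 and 4.2.

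The wild-type lines differed in which IGFBP they expressed. WM115 WT had more IGFBP2, and A375 WT had more IGFBP4 and IGFBP6: 3 of 6 genes were called, beside 22.7% of all 16126 genes tested between the lines. IGFBP2, a carrier often raised in tumours, was at 83.8, 78.2, 54.8 and 82.0 TPM in A375 WT and at 747, 715, 645 and 740 TPM in WM115 WT. The groups did not overlap, and IGFBP2 was higher in WM115 by 3.25 on the log2 scale (SE 0.16, adjusted p = 2.79e-07). IGFBP4, the carrier that PAPPA cuts in an IGF-dependent way, was at 104, 70.0, 69.8 and 139 TPM in A375 WT against 13.5, 7.29, 4.78 and 7.39 TPM in WM115 WT. Every A375 library was above every WM115 library, and the log2 difference was -3.41 (SE 0.30, adjusted p = 1.86e-05). IGFBP6, which binds IGF2 in preference to IGF1, was at 66.5 ± 7.01 TPM (SD, n = 4) in A375 WT and at 15.7 ± 6.34 TPM (SD, n = 4) in WM115 WT. Its groups did not overlap either (log2 difference -2.11, SE 0.28, adjusted p = 0.000205). IGFBP7 was at 67.9 ± 12.4 TPM (SD, n = 4) against 104 ± 19.4 TPM (SD, n = 4), a log2 difference of 0.60 with adjusted p = 0.0199, below the minimum size for a call. IGFBP3 (log2 difference 0.34, adjusted p = 0.597) and IGFBP5 (-0.43, adjusted p = 0.622) were not called, and their WT libraries overlapped between the lines.

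Against WT of the same line, 2 of 6 genes were called in A375 clone 1.2, where 4.01% of 16692 tested genes were called. In A375, 0 of 6 were called in clone 1.1 (0.731% of tested genes), in clone 4.1 (0.653%) and in clone 4.2 (0.473%). Of these 18 values, IGFBP2 in clones 1.1 and 4.1 had an unadjusted p under 0.05. Over all 16692 tested genes, 1679, 1758 and 1297 did so in clones 1.1, 4.1 and 4.2. With the replicate number as a block in clone 4.1, 0 of 6 were called too, beside 246 of all tested genes in place of 109. In all 4 same-numbered pairs with WT, IGFBP3 was higher in that clone and IGFBP2, IGFBP4 and IGFBP6 were lower. IGFBP5 and IGFBP7 went both ways, and no such count was made over all genes. In WM115, 1 of 6 was called in clone 1.1 (4.88% of 16997 tested genes) and 3 of 6 in clone 1.2 (7.61%). The counts were 1 of 6 in clone 4.1 (7.57%) and 3 of 6 in clone 4.2 (6.60%). In clone 1.3, 0 of 6 were called (0.618%). There, 2 of the 6, IGFBP5 and IGFBP7, had an unadjusted p under 0.05, beside 2212 of all 16997 tested genes. The median log2 difference of the 6 genes ranged from -0.17 (clone 4.1) to 0.73 (clone 1.2) among the A375 clones, where the median over all tested genes lay between -0.02 and 0.07. In WM115 it ranged from -0.65 (clone 1.1) to 1.26 (clone 4.2), where the medians over all tested genes lay between -0.12 and -0.02. The clones of a line share their WT libraries, so these comparisons are not independent.

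**Figure D2:**
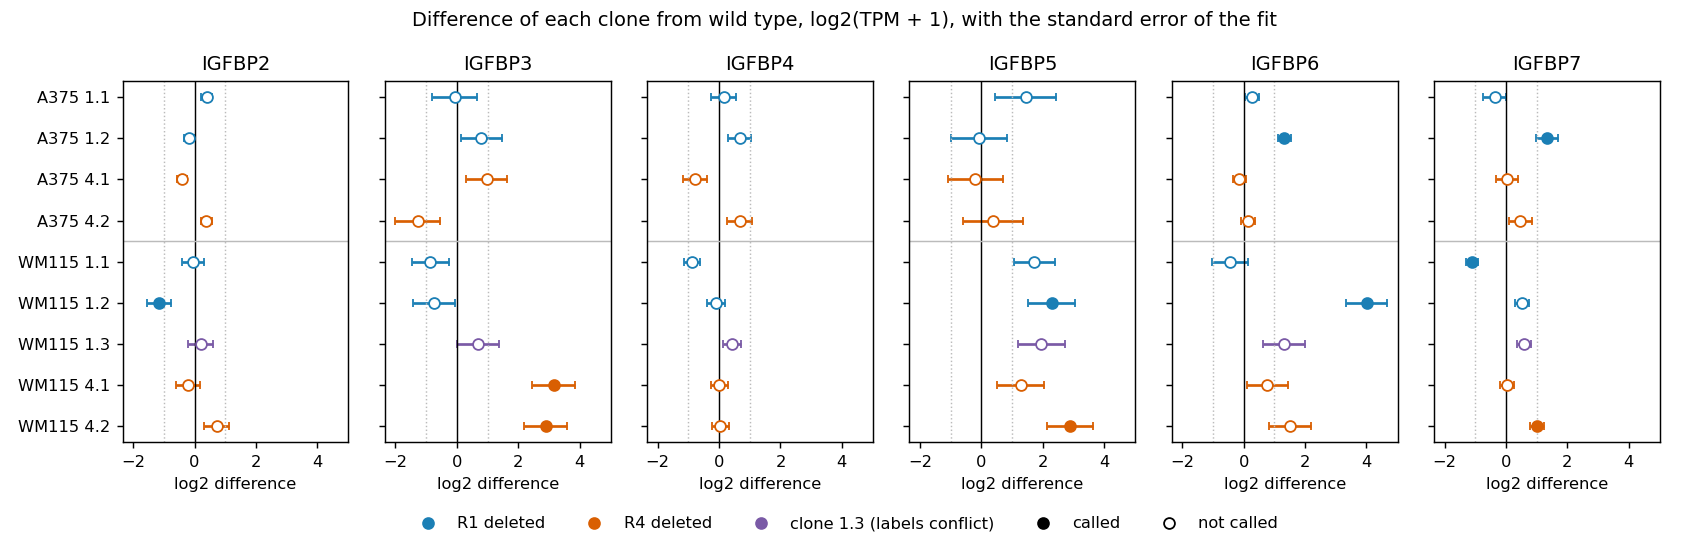
Log2 difference of each clone from WT of its line on log2(TPM + 1), with bars of 1 standard error of the fit; filled points were called and dotted lines mark a difference of 1. IGFBP3 is at 3.15 and 2.90 in WM115 clones 4.1 and 4.2 and IGFBP6 at 4.01 in WM115 clone 1.2, while no A375 value passes 1.44.

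IGFBP3 rose in both R4-deleted clones of WM115. IGFBP3 is the main carrier of IGFs in blood and also binds to the cell surface. WM115 WT held 184, 166, 185 and 53.4 TPM. Clone 4.1 held 1036, 1622 and 981 TPM, and clone 4.2 held 1489, 1571 and 412 TPM. All 6 R4-deleted libraries were above all 4 WT libraries. The log2 differences were 3.15 (SE 0.69, adjusted p = 0.00338) in clone 4.1 and 2.90 (SE 0.69, adjusted p = 0.00722) in clone 4.2. With the ribosomal protein share as a covariate they were 1.26 (SE 0.96, adjusted p = 0.598) and 1.198 (SE 0.90, adjusted p = 0.695), and neither was called. Among the 15 WM115 libraries of high mitochondrial share, which hold 2 libraries of clone 4.2, its value was 2.60 (adjusted p = 0.0764). The R1-deleted clones of WM115 have a ribosomal protein share like that of the R4-deleted clones, 16.6% to 18.6% against 16.2% to 18.6%. Their 8 IGFBP3 values lay between 33.0 and 241 TPM, below all 6 values of clones 4.1 and 4.2. Against WT, the effects of this share and of being a clone cannot be told apart in WM115. The part of the share in the IGFBP3 levels was not tested. Clone 1.1 had 87.4, 165, 83.2, 48.4 and 33.0 TPM and clone 1.2 had 241, 43.2 and 45.2 TPM, and neither was called against WT (log2 differences -0.86 and -0.75). Clones 4.1 and 4.2 differed from each other by -0.26 (SE 0.74, adjusted p = 0.889).

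In A375 the same gene showed no call in either R4-deleted clone, and the 2 clones lay on opposite sides of WT. IGFBP3 was at 90.5, 254, 82.9 and 60.6 TPM in A375 WT. It was at 203, 417, 130 and 158 TPM in clone 4.1 (log2 difference 0.97, SE 0.68, adjusted p = 0.740). That fit does not use the library numbers, by which each clone 4.1 library was above the WT library of the same number. In clone 4.2, IGFBP3 was at 40.3, 78.7 and 23.5 TPM (-1.28, SE 0.73, adjusted p = 0.658). Both clones overlapped WT, but they did not overlap each other, and the difference of clone 4.2 from clone 4.1 was -2.25 (SE 0.73, adjusted p = 0.0943). In the R1-deleted clones, IGFBP3 was at 238, 109 and 36.7 TPM (clone 1.1) and at 289, 41.0, 261 and 343 TPM (clone 1.2), again overlapping WT. Taking each clone as 1 value, the change of IGFBP3 with R4 deletion was larger in WM115 than in A375 by 3.18 (SE 1.12, unadjusted p = 0.0233, adjusted p = 0.9999 by limma), a difference that failed the correction over 15287 genes.

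IGFBP6 was higher than WT in clone 1.2 of A375 and in clone 1.2 of WM115, both R1 deleted. Clone numbers are labels within a line, so these are different clones that share only the deleted region. In A375 WT it was at 68.1, 75.1, 58.2 and 64.8 TPM and in A375 clone 1.2 at 231, 134, 162 and 156 TPM. All 4 clone libraries were above all WT libraries, and IGFBP6 rose by 1.32 (SE 0.21, adjusted p = 0.00072). In WM115 WT it was at 13.97, 19.3, 21.9 and 7.53 TPM and in WM115 clone 1.2 at 174, 238 and 380 TPM. The groups did not overlap and IGFBP6 rose by 4.01 (SE 0.67, adjusted p = 0.00079). Library 3 of WM115 clone 1.2, which has the lowest SOX10 of all libraries, had the highest IGFBP6 of all 39; without it the difference from WT was still called. With the ribosomal protein share as a covariate the WM115 value was 1.90 (SE 0.84, adjusted p = 0.459). Clone 1.1, the other R1-deleted clone of each line, did not share the rise. IGFBP6 was at 100, 89.7 and 57.6 TPM in A375 clone 1.1 (log2 difference 0.27, adjusted p = 0.716). In WM115 clone 1.1 it was at 10.9, 9.74, 14.4, 9.78 and 8.59 TPM (-0.44, adjusted p = 0.635).

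The 2 R1-deleted clones were compared directly within each line. In A375, IGFBP6 was higher in clone 1.2 than in clone 1.1 by 1.05 (SE 0.23, adjusted p = 0.00684) and IGFBP7 by 1.71 (SE 0.37, adjusted p = 0.00647), 2 of 6 genes called beside 6.16% of all tested. The A375 IGFBP6 value fell under the minimum size without library 3 of clone 1.1 (0.81) or library 1 of clone 1.2 (0.89), and IGFBP7 lost its call without library 2 of clone 1.1 (1.44, adjusted p = 0.0502). In WM115, IGFBP6 was higher in clone 1.2 by 4.45 (SE 0.64, adjusted p = 5.74e-05) and IGFBP7 by 1.61 (SE 0.22, adjusted p = 3.69e-05). IGFBP2 was lower there (log2 difference -1.12, adjusted p = 0.0279), so 3 of 6 genes were called beside 11.8% of all tested. Without library 3 of clone 1.2 that IGFBP2 value was -0.35 (adjusted p = 0.343), and it also lost its call, at -1.02 to -1.06, without library 1, 2 or 3 of clone 1.1. IGFBP6 and IGFBP7 of WM115 remained called under all 21 alternatives.

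In the R4-deleted clones of WM115, IGFBP6 was at 22.9, 32.3 and 22.6 TPM (clone 4.1) and at 37.8, 49.1 and 44.3 TPM (clone 4.2). All 6 values were above the highest WT value of 21.9 TPM, by little in clone 4.1, and neither clone was called (log2 differences 0.77 and 1.51, adjusted p = 0.432 and 0.117). In A375 clones 4.1 and 4.2 the gene was at 51.1 to 74.2 and 56.7 to 105 TPM, overlapping WT. Clone 1.3 of WM115 spanned nearly the whole range of the line, with 23.0, 253 and 8.57 TPM in libraries 1, 2 and 3. Its high value belongs to library 2, the one closest to clone 1.2, and its low value to library 3, the one closest to WT.

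IGFBP7 rose, as did IGFBP6, in A375 clone 1.2, and IGFBP7 fell in WM115 clone 1.1. In A375 WT it was at 62.5, 84.4, 69.3 and 55.4 TPM, and in clone 1.2 at 208, 139, 221 and 135 TPM. The groups did not overlap and IGFBP7 rose by 1.34 (SE 0.35, adjusted p = 0.022). The call was lost, at values of 1.22 to 1.35, without any 1 of 5 libraries: 1 or 3 of clone 1.2, or 1, 3 or 4 of WT. Within the 12 A375 libraries of low mitochondrial share neither IGFBP6 (1.34, adjusted p = 0.137) nor IGFBP7 (1.34, adjusted p = 0.393) was called in clone 1.2, at sizes close to those over all libraries. In WM115 WT, IGFBP7 was at 123, 100, 78.5 and 113 TPM, and in clone 1.1 at 55.0, 52.1, 47.9, 40.6 and 42.4 TPM. All 5 clone libraries lay below all WT libraries and IGFBP7 fell by 1.099 on the log2 scale (SE 0.20, adjusted p = 0.00101). This was the 1 call of an IGFBP gene in a WM115 clone against WT that stood with the ribosomal protein share as a covariate. With that covariate, 390 of all 16997 tested genes were called in clone 1.1, beside 24 in clone 1.2, 248 in 4.1 and 106 in 4.2. Calls of any gene were thus lost less often in clone 1.1. Over all tested genes, the median log2 difference of clone 1.1 from WT was -0.12; with median-of-ratios scaling, which moves that median, the IGFBP7 value was -0.96 (adjusted p = 0.00283), under the minimum size.

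WM115 clone 4.2 had the highest IGFBP7 of any group, with 251, 201 and 176 TPM. It was above WT in 3 of 3 libraries and rose by 1.009 (SE 0.23, adjusted p = 0.00556), close to the minimum size of 1. With the ribosomal protein share as a covariate the value was 0.22 (adjusted p = 0.826), and without library 1 of the clone it was 0.87 (adjusted p = 0.0338). It was also under 1 without WT library 2 (0.998) or WT library 3 (0.88). Clone 4.1, with 109, 88.6 and 117 TPM, overlapped WT (log2 difference 0.02, adjusted p = 0.956). Between the 2 R4-deleted clones of WM115, 0 of 6 genes were called, beside 2.63% of all tested, and IGFBP7 differed by 0.99 (SE 0.25, adjusted p = 0.0202). It was called without library 3 of clone 4.1 (1.07) or library 3 of clone 4.2 (1.103). IGFBP2 differed by 0.93 between these clones (SE 0.42, adjusted p = 0.213). In WM115 clone 1.2, IGFBP7 was at 120, 135 and 193 TPM (log2 difference 0.51, adjusted p = 0.116), and in clone 1.3 at 200, 198 and 95.6 TPM (0.60, adjusted p = 0.270). A375 clone 1.1 had 118 TPM in library 1 and 35.5 and 32.8 TPM in libraries 2 and 3, on both sides of WT.

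IGFBP5, a carrier that binds the extracellular matrix, varied most between libraries of a group. In A375 WT it was at 39.3, 49.7, 5.67 and 7.65 TPM, so libraries 1 and 2 were several-fold above libraries 3 and 4. Clone 1.1 of A375 had 185, 22.4 and 28.3 TPM and clone 4.2 had 100, 10.2 and 11.3 TPM, each with library 1 far above the others. A375 clone 1.2 had 47.5, 5.09, 40.5 and 6.53 TPM and clone 4.1 had 28.2, 9.35, 11.2 and 17.7 TPM. Every A375 clone overlapped WT, and the log2 differences had standard errors of 0.91 to 0.98, so a difference of 1 on the log2 scale was not detectable at this spread.

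In WM115, IGFBP5 was lowest in WT, with 11.7, 23.2, 15.6 and 6.09 TPM. Clone 4.2 had 93.6, 93.3 and 117 TPM, all above WT, and IGFBP5 rose by 2.89 (SE 0.76, adjusted p = 0.0124). Clone 1.2 had 39.9, 166 and 43.6 TPM, all above WT, and IGFBP5 rose by 2.29 (SE 0.76, adjusted p = 0.0371). The call in clone 1.2 was lost without library 2 (1.63, adjusted p = 0.158), without library 3 (2.59, adjusted p = 0.0853), and without WT library 1 (2.25, adjusted p = 0.0716) or 4 (1.97, adjusted p = 0.0951). With the ribosomal protein share as a covariate, the values were 0.78 (adjusted p = 0.849) in clone 4.2 and 0.02 (adjusted p = 0.996) in clone 1.2. Clone 1.1 had 90.05, 89.3, 56.9, 16.0 and 22.8 TPM, with 3 of 5 libraries above WT (log2 difference 1.72, adjusted p = 0.0715). Without library 4 of the clone the value was 2.08 and was called (adjusted p = 0.0395). Its 3 high libraries are those of low mitochondrial share, 4.86% to 6.78%, and its 2 low ones have 13.2% and 14.4%. Libraries 1, 2 and 3 of clone 4.2 had shares of 4.71%, 12.7% and 11.2% without such a split in IGFBP5. In clone 4.1 the lowest IGFBP5 went with the lowest share, 5.24%, and in clone 1.3 with the highest, 19.4%. The part of the mitochondrial share in the IGFBP5 levels was not tested. Clone 4.1 had 45.2, 23.0 and 32.4 TPM (1.28, adjusted p = 0.233). Clone 1.3 had 80.7, 173 and 9.80 TPM (1.96, adjusted p = 0.273), the low value in library 3, which is closest to WT. Without that library both IGFBP5 (3.11, adjusted p = 0.0137) and IGFBP6 (2.32, adjusted p = 0.0312) were called in clone 1.3.

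IGFBP2, the neighbour of IGFBP5 on chromosome 2, varied less between libraries of a group. In A375 its group means ran from 56.0 ± 9.48 TPM (SD, n = 4) in clone 4.1 to 98.7 ± 19.1 TPM (SD, n = 3) in clone 1.1. All 3 libraries of clone 4.2, with 102, 93.2 and 93.3 TPM, were above the highest WT value of 83.8 TPM, without a call (log2 difference 0.38, SE 0.18, adjusted p = 0.641). In WM115 clone 1.2 it was at 520, 560 and 108 TPM, below the lowest WT value of 645 TPM in 3 of 3 libraries, and it fell by 1.17 (SE 0.40, adjusted p = 0.0411). The call rests on library 3, the one with the least SOX10: without it the value was -0.40 (adjusted p = 0.365). It was also lost, at -1.14 to -1.21, without any 1 of the 4 WT libraries, and with the ribosomal protein share as a covariate (-1.41, SE 0.62, adjusted p = 0.459). WM115 clone 4.2 had 1613, 1057 and 935 TPM, all above WT, and was not called (0.72, SE 0.40, adjusted p = 0.209). Clone 4.1 had 637, 597 and 606 TPM, all just below WT (-0.21, adjusted p = 0.739). Clone 1.1 had 895, 801, 800, 508 and 524 TPM, with 3 of 5 libraries above all WT libraries and 2 below all of them. Its log2 difference of -0.05 (adjusted p = 0.940) averages over that split. Clone 1.3, with 1138, 694 and 685 TPM, overlapped WT.

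IGFBP4 changed with line and not, by any call, with clone. In A375 clone 4.1 it was at 58.3, 48.2, 45.9 and 59.3 TPM, below all 4 WT libraries (log2 difference -0.79, SE 0.38, adjusted p = 0.491). In clone 4.2 it was at 96.6, 136 and 238 TPM (0.67, adjusted p = 0.658), so the R4-deleted clones of A375 did not overlap each other. Their difference was 1.46 (SE 0.41, adjusted p = 0.0577), and it was called without library 1 of clone 4.2 (1.75, adjusted p = 0.0338). Of the 6 genes 0 were called between these clones, beside 2.23% of all tested. IGFBP2 (0.78, adjusted p = 0.0236), IGFBP3 and IGFBP4 each had an unadjusted p under 0.05, as did 3722 of all 16692 tested genes. In the R1-deleted clones it was at 64.9, 61.4 and 261 TPM (clone 1.1) and at 149, 190, 140 and 117 TPM (clone 1.2). These clones differed by 0.53, and by 1.202 without library 3 of clone 1.1 (adjusted p = 0.0251), which was then called. In WM115 all 21 values lay between 2.16 and 14.1 TPM. Clone 1.1 held 4.90, 5.19, 3.996, 2.16 and 3.21 TPM, the last 3 of them the lowest of the 21 and the other two above the 4.78 TPM of WT library 3. Its log2 difference was -0.88 (SE 0.25, adjusted p = 0.0193), under the minimum size. Without WT library 3 it was -1.08 (adjusted p = 0.00703) and was called.

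**Figure D3:**
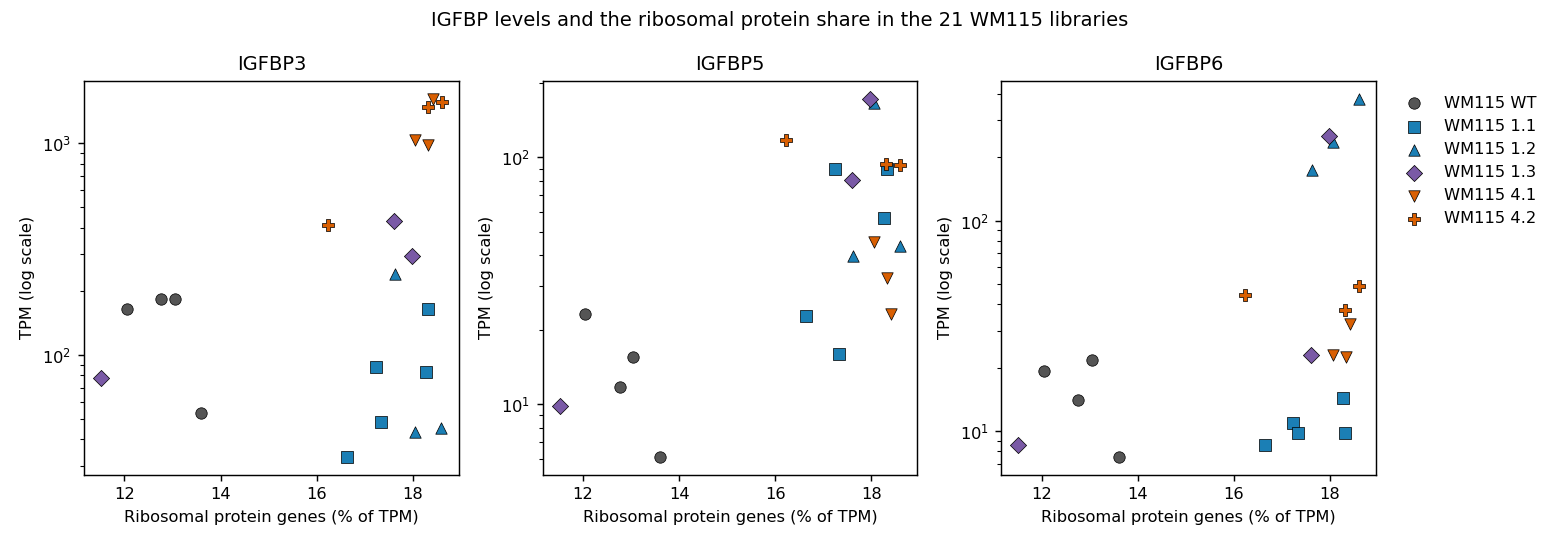
TPM on a log scale of IGFBP3, IGFBP5 and IGFBP6 against the share of ribosomal protein genes in percent of TPM, for the 21 WM115 libraries; each point is a library, shapes give the clone. The 4 WT libraries and library 3 of clone 1.3 lie between 11.5% and 13.6% and the other 16 between 16.2% and 18.6%, and at those higher shares IGFBP3 ranges from 33.0 to 1622 TPM.

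The deletions were then compared over clones, with each group mean as 1 value, 10 in all (2 of WT, 4 of R1 and 4 of R4 clones), and the line as a term. For R1 against WT, for R4 against WT and for R1 against R4, 0 of 6 genes were called, and 0% of the 15287 genes tested. An unadjusted p under 0.05 was reached by 267, 339 and 742 of those genes. Among the 6 genes it was reached by IGFBP5 for R1 against WT (1.34, SE 0.58, adjusted p = 0.9998). IGFBP3 was at 1.44 (SE 1.003) for R4 against WT and IGFBP6 at 1.29 (SE 0.94) for R1 against WT. The tests of whether a deletion acted differently in the lines also called 0 of 6 genes and 0% of all tested. An unadjusted p under 0.05 was reached by 387 genes for R4 and 205 for R1.

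Ordering the 11 groups by mean TPM placed the 6 WM115 groups in the top places for IGFBP2 and the 5 A375 groups in the top places for IGFBP4. Such orders and overlaps were not computed for other genes, and 22.7% of all 16126 tested genes were called between the WT lines. IGFBP3 ran from 1213 TPM in WM115 clone 4.1 down to 47.5 TPM in A375 clone 4.2, but the ranges of neighbours in that order overlapped in 10 of 10 pairs. The same held for IGFBP5, from 101 TPM in WM115 clone 4.2 to 14.1 TPM in WM115 WT. Neighbours overlapped in 8 of 10 pairs for IGFBP2 and IGFBP4, in 7 for IGFBP6 and in 9 for IGFBP7. IGFBP6 ran from 264 TPM in WM115 clone 1.2 and 171 TPM in A375 clone 1.2 down to 10.7 TPM in WM115 clone 1.1, and IGFBP7 from 209 TPM in WM115 clone 4.2 to 47.6 TPM in WM115 clone 1.1.

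The summed TPM of the 6 genes was 341 to 987 in the A375 libraries and 624.6 to 3494 in the WM115 libraries. IGFBP2 made up 71.3% ± 5.66 (SD, n = 4) of the sum in WM115 WT and 16.9% ± 3.19 (SD, n = 4) in A375 WT. In A375 WT no gene dominated: IGFBP3 gave 25.2%, IGFBP4 22.3%, IGFBP7 15.4%, IGFBP6 15.1% and IGFBP5 5.11%. IGFBP3 made up 59.9% ± 7.38 (SD, n = 3) in WM115 clone 4.1 and 39.9% ± 14.4 (SD, n = 3) in clone 4.2, against 14.5% ± 6.02 (SD, n = 4) in WT. IGFBP6 made up 28.4% ± 17.8 (SD, n = 3) in WM115 clone 1.2 and 1.56% ± 0.65 (SD, n = 4) in WT.

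**Figure D4:**
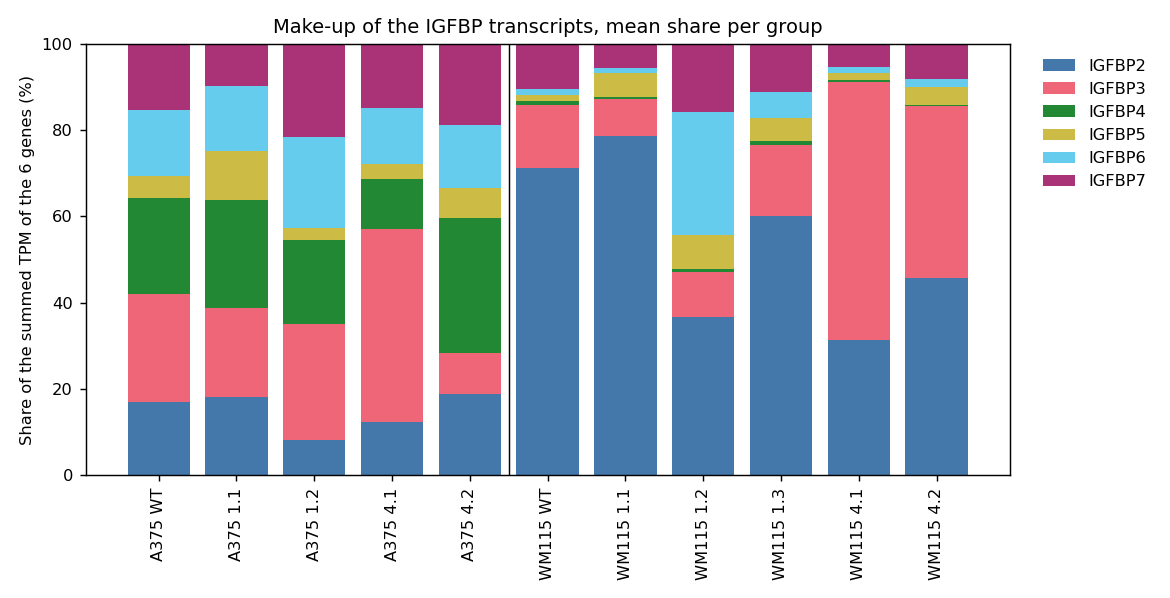
Mean share of each gene in the summed TPM of the 6 genes, in percent, as stacked bars for the 11 groups, without error bars. IGFBP2 takes 71.3% in WM115 WT and 16.9% in A375 WT, and IGFBP3 takes 59.9% in WM115 clone 4.1.

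At transcript level, the deposited transcript values of each gene summed to its gene value. IGFBP3 was carried by a pair of transcripts in similar amounts in both lines: IGFBP3-201 made up a median of 46.3% in A375 and 45.7% in WM115, and IGFBP3-210 made up 44.3% and 41.4%. IGFBP4 had 1 transcript. IGFBP7-201 made up a median of 97.4% in A375 and 98.0% in WM115, and IGFBP2-201 75.7% and 73.6%. IGFBP6-201 led in both lines, with medians of 78.5% and 89.6%. IGFBP6-204, another coding transcript, was at a median of 14.3% of the gene in A375 (lowest 7.13%) and was listed at a median of 0 in WM115 (highest 24.2%). For IGFBP5, the retained-intron transcript IGFBP5-203 made up a median of 6.37% in A375 and 16.3% in WM115, with ranges of 0 to 37.1% and 2.94% to 37.2%. Transcripts that share most exons are hard to separate, so these shares are estimates of the deposited quantification.

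Over the 39 libraries the 6 genes did not vary together as a set, though some pairs did within a line. After centring each line on its mean, the highest correlation of log2(TPM + 1) over the 39 libraries was that of IGFBP6 with IGFBP7 (Pearson r = 0.61; 0.80 over the 18 A375 and 0.62 over the 21 WM115 libraries). IGFBP2 and IGFBP5, the chromosome neighbours, had r = 0.31, and IGFBP2 and IGFBP6 had the lowest value over the 39 libraries, -0.36. Some pairs differed between the lines. IGFBP4 and IGFBP7 had r = 0.72 over the WM115 and 0.14 over the A375 libraries. IGFBP3 and IGFBP4 had r = 0.39 over the WM115 and -0.58 over the A375 libraries, and -0.03 over all 39. Libraries of a clone share that clone, so these are descriptions and carry no p. By the same measure over 15281 genes, the 3 genes most like IGFBP6 were MYZAP (r = 0.93), ABCC3, a drug efflux transporter (r = 0.92), and OTULINL (r = 0.91). ABCC3 had a mean of 1.64 TPM in WM115 WT, 44.4 TPM in WM115 clone 1.2 and 1.07 TPM in WM115 clone 1.1, and 3.31 and 16.8 TPM in A375 WT and A375 clone 1.2. The 3 most like IGFBP3 were FBLN1, which encodes the matrix protein fibulin-1 (r = 0.86), CNTNAP3P2 (r = 0.84) and RHOU (r = 0.83). FBLN1 had a mean of 305 TPM in WM115 clone 4.1 and 127 TPM in clone 4.2, against 31.9 TPM in WM115 WT.

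For IGFBP2 the most alike genes were FOXD2 (r = 0.84), LEF1, a transcription factor of the Wnt pathway (r = 0.83), and FZD8, a Wnt receptor (r = 0.82). LEF1 and IGFBP2 had r = 0.95 over the WM115 libraries and 0.42 over the A375 libraries. For IGFBP7 they were PDIA3P1 (r = 0.85), CAP2 (r = 0.84) and APOBEC3F (r = 0.81). IGFBP4 and IGFBP5 had less close partners: OSR2 (r = 0.73), EFEMP1 (r = 0.73) and GDA (r = 0.73) for IGFBP4, and TGFBI (r = 0.72), LTBP1 (r = 0.68) and AL138752.2 (r = 0.68) for IGFBP5. Some of these rest on 1 line. OSR2 and IGFBP4 had r = 0.91 over the A375 and 0.35 over the WM115 libraries, GDA 0.92 and 0.28, and EFEMP1 0.78 and 0.64. For IGFBP5 the values in A375 and WM115 were 0.70 and 0.75 (TGFBI), 0.72 and 0.65 (LTBP1) and 0.51 and 0.81 (AL138752.2). Over the 11 group means LTBP1 had r = 0.35 with IGFBP5 and took place 2234 of 15281 genes.

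The rest of the IGF system was followed with a list of 25 genes, of which 15 were tested in A375 and 16 in WM115. The ligands were nearly silent: IGF1 did not pass 1.26 TPM and IGF2 did not pass 0.978 TPM in any library. IGFBP1 did not pass 0.697 TPM. The receptor IGF1R was at 67.0 to 195 TPM in A375 and at 14.4 to 55.4 TPM in WM115, and lower in WM115 WT than in A375 WT (log2 difference -1.53, adjusted p = 9.33e-05). No clone was called for IGF1R, IGF2R or INSR. Against WT, 4 of 15 list genes were called in A375 clone 1.2 (4.01% of all tested genes), 1 in clone 4.1 (0.653%) and 0 in clones 1.1 (0.731%) and 4.2 (0.473%). In WM115 the counts were 1 of 16 in clone 1.1 (4.88%), 5 in clone 1.2 (7.61%), 0 in clone 1.3 (0.618%), 2 in clone 4.1 (7.57%) and 3 in clone 4.2 (6.60%). Once the ribosomal protein share was a covariate, 0 of these 11 WM115 calls stood and 5 of the 5 A375 calls did. Of all tested genes, the covariate left 390 called in WM115 clone 1.1, 24 in 1.2, 248 in 4.1 and 106 in 4.2. Each of these counts was lower than without it. In A375 the number over all tested genes went from 669 to 994 in clone 1.2 and from 109 to 147 in clone 4.1. The 0 and the 5 thus went the same way as the counts over all genes.

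Among regulators of IGFBP cleavage, PAPPA, the protease of IGFBP4 and IGFBP5, rose in WM115 clones 1.2 (2.22, adjusted p = 0.00154), 4.1 (1.64, adjusted p = 0.00764) and 4.2 (1.54, adjusted p = 0.0124). The PAPPA values with the ribosomal protein share as a covariate were 0.93, 0.31 and 0.35 (adjusted p = 0.536, 0.845 and 0.876). STC1, its inhibitor, rose in WM115 clones 1.2 (3.92, adjusted p = 0.0078) and 4.2 (2.73, adjusted p = 0.0447). With that covariate STC1 was at 0.18 (adjusted p = 0.954) in clone 1.2 and, with the sign turned, at -0.74 (adjusted p = 0.847) in clone 4.2. ADAM12, a metalloprotease, rose in WM115 clones 1.1 (1.29) and 1.2 (1.37) and in A375 clone 4.1 (1.11); with the covariate it was at 0.74 in both WM115 clones (adjusted p = 0.345 and 0.566). HTRA1, a secreted serine protease, fell by 3.17 in A375 clone 1.2 (adjusted p = 0.00015). Among adaptors of the receptors, IRS1 rose in clone 1.2 of A375 (1.57) and of WM115 (1.52, and 1.17 with adjusted p = 0.370 under the covariate). GRB10, which restrains receptor signalling, fell by 2.38 in A375 clone 1.2 (adjusted p = 3.14e-08), and IRS2 fell by 1.08 and 1.04 in WM115 clones 4.1 and 4.2. The covariate put IRS2 at -0.89 and -0.87 there (adjusted p = 0.461 and 0.562). CCN1, a matrix protein with an IGFBP-like domain, rose in clone 1.2 of both lines (2.35 in A375, 2.42 in WM115), and the WM115 value with the covariate was 0.27 (adjusted p = 0.938).

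**Figure D5:**
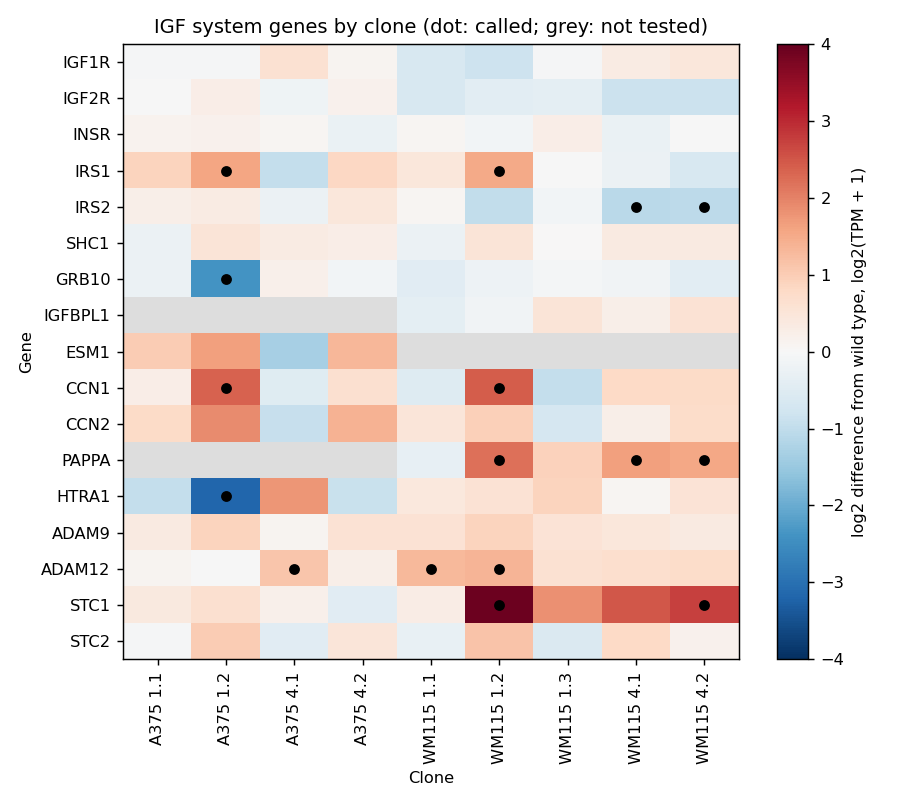
Log2 difference from WT on log2(TPM + 1), as colour, for the 17 IGF system genes tested in at least 1 line and the 9 clones; a dot marks a call and grey a gene not tested in that line. STC1 in WM115 clone 1.2 is the deepest red at 3.92 and HTRA1 in A375 clone 1.2 the deepest blue at -3.17.

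Markers of other cell types were summed beside these results. The summed TPM of 6 fibroblast markers was 10.1 to 14.3 in A375 clone 1.2 and 3.05 to 6.56 in A375 WT, with COL1A2 and COL3A1 under 1 TPM in all A375 libraries. In WM115 all 6 reached 1 TPM, and their sum was 466.3 to 832 TPM in clone 1.2, 584 to 670 TPM in clone 4.1, 542 to 741 TPM in clone 4.2 and 459 to 671 TPM in WT. COL1A2 made up most of that sum, with means of 644, 607 and 662 TPM in clones 1.2, 4.1 and 4.2 and 545 TPM in WT. The summed TPM of 8 melanocytic markers was 448 to 522 in A375 clone 1.2 against 687 to 813 in A375 WT, and 29.4 to 936 in WM115 clone 1.2 against 1044 to 2890 in WM115 WT. In the other WM115 clones it was 1120 to 1865 (clone 1.1), 754 to 1514 (clone 1.3), 791 to 1138 (clone 4.1) and 661 to 1065 (clone 4.2). The melanocytic markers MLANA, TYR, DCT and TYRP1 stayed under 1 TPM in all A375 libraries. Of 4 endothelial markers, 2 reached 1 TPM in A375 and 3 in WM115, and VWF stayed under 1 TPM in all 39 libraries. Their sum was 3.64 to 16.3 TPM in WM115 clone 1.2, 4.15 to 10.2 in clone 1.3, 5.37 to 6.99 in clone 4.1 and 4.09 to 7.82 in clone 4.2, against 2.46 to 5.91 in WT. PECAM1 led these differences, with 6.38 ± 5.06 TPM (SD, n = 3) in clone 1.2, 3.75 ± 1.01 TPM (SD, n = 3) in clone 4.1 and 5.23 ± 2.10 TPM (SD, n = 3) in clone 4.2, against 1.23 ± 1.202 TPM (SD, n = 4) in WT. In A375 the endothelial sum was 0.423 to 2.88 TPM.

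Of 4 immune markers, PTPRC and CD3E stayed under 1 TPM in all 39 libraries, and LYZ did so in WM115 and ran from 1.23 to 12.3 TPM in A375. The immune sum was 91.7 to 170 TPM in A375 clone 1.2 against 26.6 to 121 in A375 WT. In WM115 it was 420 to 757 TPM in clone 1.2, 382 to 470 in clone 4.1 and 288 to 337 in clone 4.2, against 336 to 445 in WT. CD68 made up most of it, with 127 ± 33.3 TPM (SD, n = 4) in A375 clone 1.2 and 553 ± 179 TPM (SD, n = 3) in WM115 clone 1.2. Of 5 keratinocyte markers, KRT10 and KRT14 reached 1 TPM in each line, and KRT5, KRT1 and DSG3 stayed under 1 TPM in all 39 libraries. The keratinocyte sum was 55.9 to 114 TPM in A375 and 38.8 to 79.2 TPM in WM115, with 49.995 to 54.4 TPM in WM115 clone 1.2, 57.4 to 72.3 in clone 4.1 and 59.8 to 79.2 in clone 4.2 against 40.3 to 56.4 in WT. The part of these marker levels in the IGFBP results was not tested.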

How the data were processed

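Per the labels, the 39 libraries were made from polyadenylated RNA for Illumina sequencing. The files deposited by the authors hold gene-level and transcript-level TPM. The submitters' processing notes name DRAGEN and GRCh38; the version and annotation release are not given in the sources used here. The gene table has 60871 lines, 200 of them repeats of an identifier that were used once, and 6 columns that match no sample were not used. Counts and depth are unknown.

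A pseudocount of 1 was added to TPM before taking log2. Linear models were fitted separately to A375 and to WM115 (limma 3.58.1, R 4.3.3), with a coefficient for each group, a variance trend and two-sided tests. Genes with at least 1 TPM in at least 3 libraries of the line were tested, and p-values were adjusted with Benjamini-Hochberg over all of them; all 6 IGFBP genes passed. Regions were compared on clone means. The script was tested on simulated data. The genes and lists were chosen with earlier results of these data known, and the mitochondrial share was divided at 2.5% (A375) and 7.5% (WM115) with its values known. The genes named as alike are the 3 of highest line-centred correlation per IGFBP gene. Positions are from GENCODE 29 and upstream sequences from RefSeq; IGFBP7 had no sequence entry, and the IGFBP6 window lies mostly in an exon and is not shown. Same-numbered libraries deviated together in A375 clone 4.1 with WT (4 pairs, r = 0.326 to 0.776) and in clone 1.1 with clone 4.2 (3 pairs, r = 0.435 to 0.740). The main fits do not use this pairing, so the differences given for clone 4.1 are unpaired. It enters only where the replicate number is named as a block, and no IGFBP difference of clone 4.1 from that fit is given here. Nothing in the labels says what the numbers stand for. Alternatives changed the pseudocount, filter, scaling, minimum difference, libraries and covariates.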

Additional observations from a re-analysis of the deposited data

Results flagged for a closer look

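Each of the 6 genes was examined for a library far from the others in the 5 groups of 4 or 5 libraries, 30 sets in all, and 2 values were found; chance alone marks about 1 in 20 such sets. IGFBP3 was at 253.692 TPM in library 2 of A375 WT, the highest of 4, where the other 3 lay between 60.6 and 90.5 TPM. IGFBP3 was at 53.417 TPM in library 4 of WM115 WT, the lowest of 4, where the other 3 lay between 166 and 185 TPM. Leaving either library out left the number of IGFBP genes called between the wild-type lines at 3. Without library 4 of WM115 WT, IGFBP3 stayed called in WM115 clones 4.1 and 4.2.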

How the results depend on the processing

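For the numbers of IGFBP genes called, 280 of 323 alternatives gave a value within 1.5 times the first, and for the called values 295 of 350 stayed called in the same direction. The 280 is no measure of stability. It includes counts of 0 that stayed 0, and a change from 3 to 2 counted as within 1.5 times. Among the comparisons over clones of both lines, 0 of all tested genes were called at first, so a count of 0 could hardly change there. Leaving out 1 library gave 1 to 2 called genes in A375 clone 1.2 against WT and against clone 1.1, 0 to 1 between A375 clones 4.2 and 4.1, 1 to 2 in WM115 clone 1.1, 1 to 3 in clone 1.2, 0 to 2 in clone 1.3 and 0 to 1 between WM115 clones 4.2 and 4.1. With the replicate number as a block, the count was 1 for A375 clone 4.2 against 4.1, 2 for WM115 clone 1.1, 1 for WM115 clone 1.2 and 1 for WM115 clone 4.2 against 4.1; the block changed no other count of IGFBP genes, and these groups share only a number. With only the 2 groups fitted, A375 clone 4.2 against 4.1 gave 2, WM115 clone 1.1 gave 2, clone 4.1 gave 2 and clone 4.2 against 4.1 gave 1. With the mitochondrial set as a term those of A375 clone 4.2 against 4.1 and WM115 clone 4.2 against 4.1 were 1, and WM115 clone 1.1 gave 2. Without a minimum difference the same comparisons gave 1, 1 and 2. Median-of-ratios scaling gave 1 for A375 clone 1.2 against 1.1 and 0 for WM115 clone 1.1, which gave 2 with a pseudocount of 0.1 and 2 without library 3 of clone 1.2 and library 2 of clone 1.3. WM115 clone 1.2 gave 1 with no filter and 1 within the high mitochondrial set. Within 1 mitochondrial set, 0 were called in A375 clone 1.2 against WT and against clone 1.1 and in WM115 clone 4.2; these fits hold fewer libraries. The ribosomal protein share as a covariate left 0 in WM115 clones 1.2, 4.1 and 4.2 and 1 in clone 4.2 against 4.1, and turned the sign of IGFBP5 in clone 1.1 (-0.32) and clone 4.1 (-1.07) and of IGFBP6 in clone 4.2 (-0.45). IGFBP6 in clone 1.3 ranged from -0.041 (without library 2) to 2.32 (without library 3), and was at -0.041 without library 2 of clone 1.3 and library 3 of clone 1.2. The cause of these changes was not tested.

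With the ribosomal protein share as a covariate, the number called over all tested genes went from 1293 to 24 in WM115 clone 1.2, from 1286 to 248 in clone 4.1 and from 1122 to 106 in clone 4.2. Without a minimum difference these were 3839, 4110 and 3449. Within 1 mitochondrial set the number was 124 in place of 669 in A375 clone 1.2 against WT. Against clone 1.1 it was 161 in place of 1028. Median-of-ratios scaling gave 963 in A375 clone 1.2 against 1.1 and 746 in WM115 clone 1.1, where a pseudocount of 0.1 gave 1447. WM115 clone 1.2 had 1107 with no filter and 898 within the high mitochondrial set. The block gave 1 in place of 122 in A375 clone 1.1, 15 in place of 79 in clone 4.2 and 0 in place of 105 in WM115 clone 1.3. Leaving out 1 library gave 510 to 761 called genes of all tested in A375 clone 1.2 and 126 to 696 in A375 clone 4.2 against 4.1. It gave 663 to 1034 in WM115 clone 1.1 and 501 to 1656 in clone 1.2. The fits within 1 mitochondrial set, and those without library 3 of WM115 clone 1.2 and library 2 of clone 1.3, were chosen after seeing the data. TPM hold no depth, so the precision of low values such as IGFBP4 in WM115 is unknown.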
